A study of Mus musculus with 28 samples.

Results

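The 10 genes described here build the 2 main antigen-presenting systems of the mouse, MHC class II and MHC class I. They were taken by gene symbol from the 40481 mouse genes of the count table: 7 class II genes (H2-Aa, H2-Ab1, H2-Eb1, Cd74, Ciita, H2-DMa and H2-DMb1) and 3 class I genes (H2-K1, H2-D1 and B2m). MHC class II molecules are pairs of an alpha and a beta chain that show peptides from the endosome to CD4 T cells. Their chains travel with the invariant chain, and the H2-DM pair later removes its remnant so that peptides can bind. MHC class I molecules pair a heavy chain with beta-2 microglobulin and show peptides from the cytosol to CD8 T cells. In the brain, class II is a textbook marker of activated microglia and of macrophages at its borders, while most nucleated cells can carry class I.

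RNA was sequenced from microglia, sorted with an antibody against CD11b, and from astrocytes, sorted with an antibody against ACSA-2. Both sorts came from the cortex, hippocampus and thalamus of the same animals. In each sort the labels give 5 libraries of APPPS1::APOE4fl/fl::ALDH1L1-CreERT mice (APPPS1 Cre-positive) and 5 of APPPS1::APOE4fl/fl mice (APPPS1 Cre-negative). Another 2 are of APOE4fl/fl::ALDH1L1-CreERT mice (amyloid-free Cre-positive) and 2 of APOE4fl/fl mice (amyloid-free Cre-negative). The series text gives 4 mice for each APPPS1 group. APPPS1 transgenes make mice form amyloid plaques, and the controls without them carry the floxed human APOE4 alleles too. The Aldh1l1 promoter that drives the tamoxifen-activated Cre is active in astrocytes. Tamoxifen, in 2 doses of 100 mg per kg, was given to all mice, Cre-negative ones included, when they were 3.8 months old. Sorting followed 10 days afterwards. The labels name separate mice but no sex or litter.

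Libraries held between 26162612 and 63802747 counts. Mouse 459 is labelled APPPS1 Cre-positive, and neither of its libraries matched its cell type label. The astrocyte-labelled library had 125 CPM of H2-Aa, 807 CPM of Cd74 and 6527 CPM of B2m, and the microglia-labelled library had 0.018, 0.576 and 140 CPM of the same genes. CPM is the count scaled to library size, over mouse genes and with TMM factors. Mouse 459 was left out of the values that follow, which leaves 13 mice, 4 of them APPPS1 Cre-positive. With mouse 459 kept as labelled, 0 members passed in each amyloid comparison of microglia by edgeR. The microglia library of mouse 26, 1 of the 2 amyloid-free Cre-positive animals, also stood apart, with 15890 CPM summed over 10 microglia markers against 31860 to 41110 CPM in the other 12. For the members and the pathway lists, the amyloid comparison in microglia averaged over Cre is therefore also given without the amyloid-free Cre-positive mice 22 and 26, an alternative chosen after the data were seen, in which 131 genes passed in place of 1685.

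The sorts were compared first, to see which cells carry the transcripts. Microglia had far more of 9 of the 10 members than astrocytes of the same mice, and no library of either sort overlapped with the other for these 9. Of all genes tested, 16.8% stood higher in every microglia library than in every astrocyte library. Both sorts are given here on 1 common scale. H2-Aa, the alpha chain of the class II molecule I-A, stood at 310 ± 163 CPM in microglia and at 0.169 ± 0.291 CPM in astrocytes (SD, n = 13 each). In astrocytes 7 of the 13 libraries had 0 counts of it and the highest had 44 counts. The invariant chain Cd74 stood at 1841 ± 731 CPM in microglia and 0.721 ± 1.28 CPM in astrocytes.

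Class I was present in both sorts. B2m, the light chain shared by all classical class I molecules, stood at 4952 ± 1648 CPM in microglia and 145 ± 35.2 CPM in astrocytes. The heavy chain H2-K1 stood at 1051 ± 124 CPM in microglia and 113 ± 18.4 CPM in astrocytes, and the heavy chain H2-D1 at 3142 ± 1264 CPM in microglia and 123 ± 40.5 CPM in astrocytes. Astrocyte levels were 2.92% (B2m), 10.7% (H2-K1) and 3.92% (H2-D1) of the microglia levels. The class II genes other than Ciita were at 0.0392% to 0.385%. The 10 microglia markers in the same astrocyte libraries were at 0.0294% to 12.1% of their microglia level, with a median of 0.0531%. The highest of these was Sall1, a transcription factor. Whether the class II counts in astrocytes come from microglia in the sort was not tested.

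Ciita, the transactivator that switches class II genes on, was the exception. It stood at 2.14 ± 1.85 CPM in microglia and 1.11 ± 0.685 CPM in astrocytes, with overlapping libraries. Its log2 difference was 0.83 ± 0.38 (adjusted p = 0.0522, edgeR), and with mouse as a replicate block it was 0.81 (adjusted p = 0.0147). Ciita shares 329 exon bases with Dexi on the other strand, and without strand in the counting their reads cannot be told apart. Of 21612 genes tested between the sorts, 76.5% passed an adjusted p under 0.05 in either direction, and 35.4% passed as higher in microglia, the direction of all 9 members that passed. DESeq2 called 8 members and voom 10. Log2 differences ran from 3.29 ± 0.10 for H2-K1 to 12.39 ± 0.83 for H2-Aa. The fitted differences of the class II genes depend on the tool's prior count because astrocyte libraries near 0 enter them.

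**Figure D1:**
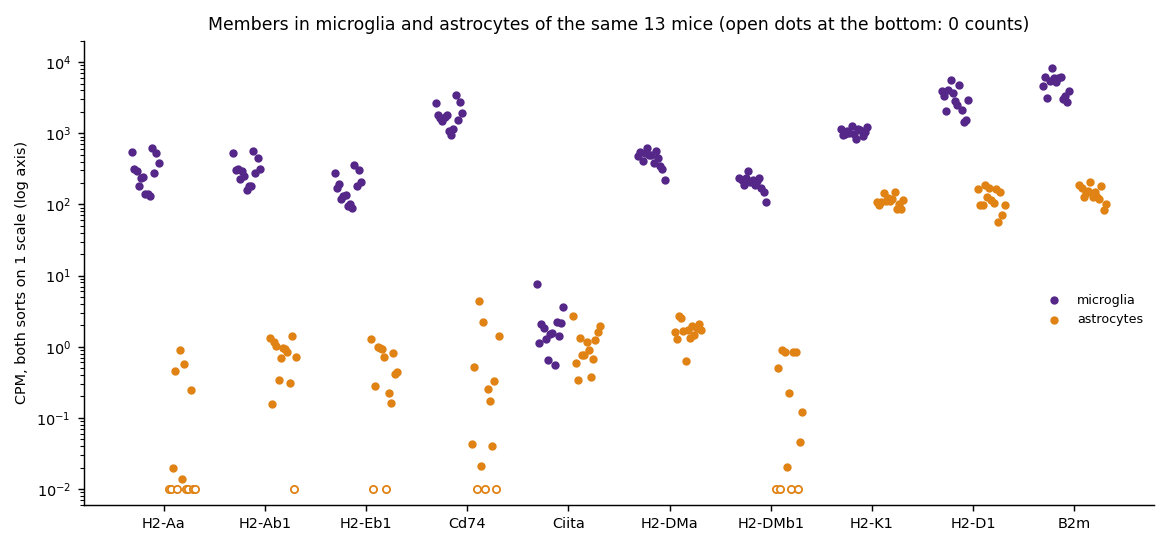
Level of each member in microglia (purple, left of each pair) and astrocytes (orange, right) of the same 13 mice, in CPM on a log axis, 1 dot per library (open dots at the bottom had 0 counts). Class II genes other than Ciita stand above 80 CPM in every microglia library and below 5 CPM in every astrocyte library, while the Ciita dots of the sorts overlap.

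Within microglia the members differed widely in level per kilobase of exon. B2m was highest at 4829 ± 1557 CPM per kilobase (SD over 13 libraries). H2-D1 (1019 ± 394) and Cd74 (921 ± 359) followed with overlapping SDs, and H2-K1 came next at 301 ± 34.5 CPM per kilobase. The DM chains H2-DMa (110 ± 25.6) and H2-DMb1 (102 ± 21.3), the beta chains H2-Ab1 (101 ± 41.5) and H2-Eb1 (78.4 ± 36.6) and H2-Aa (68.7 ± 35.8) had overlapping SDs. These SDs are between mice and do not measure how 2 genes differ within a library, which was not tested. Within a library H2-Ab1 over H2-Aa ran from 0.812 to 1.38 in CPM, with 2568 exon bases for H2-Ab1 and 3798 for H2-Aa. Ciita was lowest at 0.189 ± 0.163 CPM per kilobase. Exon bases are those of all annotated transcripts merged, so they exceed the length of any 1 transcript. The order of the genes therefore depends on the length used. H2-Aa has 3798 merged exon bases and 1127 distinct 50-base windows in its protein-coding transcripts, and H2-Ab1 has 2568 and 1260. In bulk sorted cells, fewer cells of a type and less RNA per cell cannot be told apart.

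Amyloid was compared with its absence over both Cre groups, 9 APPPS1 against 4 amyloid-free microglia libraries. Of the 10 members, the class II chains H2-Aa and H2-Eb1 fell, to 0.498 and 0.515 times the amyloid-free level, H2-DMa and B2m rose, and the other 6 did not pass. H2-DMa is a peptide-loading chain, at 1.51 times the amyloid-free level, and B2m, the class I light chain, was at 1.69 times. All 10 had been kept by the filter on low counts. In the same comparison 1685 of 17593 genes passed, which is 9.58%, with 1066 higher and 619 lower. The median log2 change was -0.24 over the members and -0.05 over all genes tested.

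H2-Aa lies on chromosome 17 at 34282744 to 34287823 of GRCm38, on the minus strand, within the MHC. It had 202, 118, 124 and 106 CPM in APPPS1 Cre-positive microglia and 453, 264, 253, 152 and 191 CPM in APPPS1 Cre-negative microglia, against 446 and 337 CPM in amyloid-free Cre-positive and 509 and 237 CPM in amyloid-free Cre-negative microglia. All 4 APPPS1 Cre-positive libraries were below all 4 amyloid-free ones, and the APPPS1 Cre-negative libraries overlapped with them. How many of all genes were split between these libraries was not counted. Mouse 439 was the highest APPPS1 library for H2-Aa, and for each of H2-Ab1, H2-Eb1 and Cd74. The log2 change was -1.01 ± 0.26 (SE; adjusted p = 0.0307, edgeR). Leaving out 1 mouse at a time gave -1.20 to -0.64, and the call was lost without mice 458 (adjusted p = 0.0602), 460 (0.0517), 475 (0.0594), 465 (0.211), 22 (0.0911) or 26 (0.0722).

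H2-Eb1 encodes the beta chain of the class II molecule I-E and lies at 34305867 to 34316674 on the plus strand of chromosome 17. It had 114, 79.7, 87.9 and 71.7 CPM in APPPS1 Cre-positive microglia and 230, 142, 164, 98.2 and 107 CPM in APPPS1 Cre-negative microglia, against 257 and 182 CPM in amyloid-free Cre-positive and 294 and 154 CPM in amyloid-free Cre-negative microglia. Again the APPPS1 Cre-positive libraries stood below every amyloid-free one. Its log2 change was -0.96 ± 0.22 (adjusted p = 0.0187, edgeR), and the call was lost without mouse 465 (adjusted p = 0.135) or mouse 22 (0.0675). H2-Ab1, the I-A beta chain, and Cd74 ran the same way without passing. The log2 change of H2-Ab1 was -0.68 ± 0.22 (adjusted p = 0.0608, edgeR) and that of Cd74 -0.69 ± 0.22 (0.0611). Without mouse 439 these were -0.79 (0.0158) and -0.77 (0.0292), and without mouse 443 Cd74 was at -0.80 (0.0355).

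Without the 2 amyloid-free Cre-positive mice 22 and 26, the 4 class II changes were -0.96 for H2-Aa, -0.70 for H2-Ab1, -0.96 for H2-Eb1 and -0.68 for Cd74. None of these passed by edgeR with 2 amyloid-free mice left (lowest adjusted p = 0.146). Ciita, which stood at 0.447 to 6.45 CPM in APPPS1 and 1.19 to 3.18 CPM in amyloid-free microglia, had a log2 change of -0.41 ± 0.49 (adjusted p = 0.63, edgeR), and of -0.03 without mice 22 and 26.

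**Figure D2:**
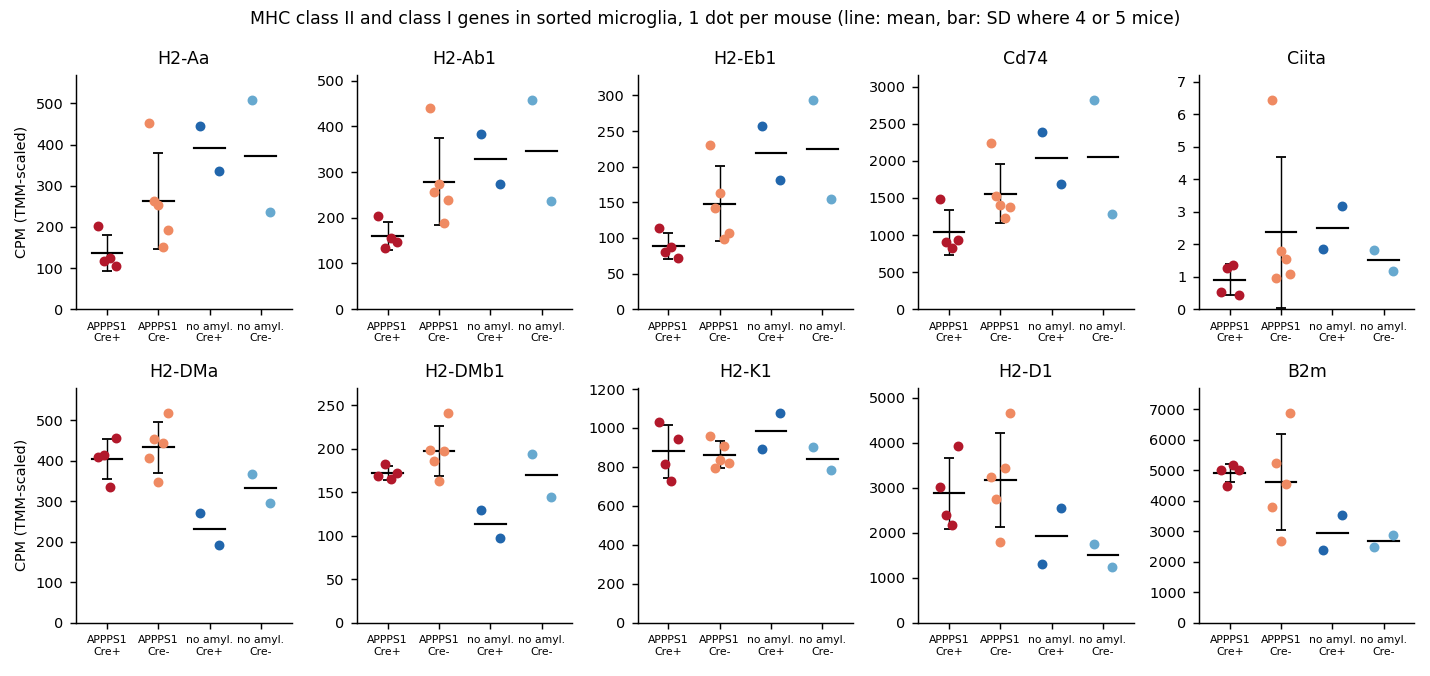
CPM of each member in microglia by genotype group, 1 dot per mouse, with the group mean as a line and the SD as a bar for the APPPS1 groups (no amyl. stands for amyloid-free). For H2-Aa, H2-Ab1, H2-Eb1 and Cd74 the APPPS1 Cre-positive dots lie below the amyloid-free Cre-positive ones, for H2-DMa and H2-DMb1 they lie above them, and H2-K1 shows no separation.

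Promoters were set beside these values because the alpha, beta and invariant chains ran the same way. RefSeq windows from 250 bases before to 50 bases after the start were at hand for 7 of the 10 members (build GRCm38.p6). H2-Ab1, Cd74 and Ciita are named only. The 3 class II stretches that follow show in capitals the Y box GATTGG, bound by NF-Y in class II promoters, the X box letters GCAAC and the cyclic AMP response element TGACGTCA. The letters were chosen with the promoters in view and were searched on both strands.
H2-Aa, chr17:34287833-34287942, minus strand: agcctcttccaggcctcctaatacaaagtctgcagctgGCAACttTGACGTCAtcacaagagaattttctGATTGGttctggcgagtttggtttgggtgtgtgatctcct
H2-Eb1, chr17:34305737-34305846, plus strand: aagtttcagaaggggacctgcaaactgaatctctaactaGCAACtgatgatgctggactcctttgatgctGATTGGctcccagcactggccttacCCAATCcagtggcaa
H2-DMb1, chr17:34153059-34153168, plus strand: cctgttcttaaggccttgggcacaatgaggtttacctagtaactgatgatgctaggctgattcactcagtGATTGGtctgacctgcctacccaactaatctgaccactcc

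The Y box starts 49 bases before the RefSeq start in H2-Aa, 60 bases before it in H2-Eb1 and 62 bases before it in H2-DMb1. H2-Eb1 has another copy on the opposite strand, printed as CCAATC. Upstream of the Y box, GCAAC occurs in H2-Aa and H2-Eb1, and has no exact match in the H2-DMb1 window. The H2-DMb1 stretch there reads gtaactgatgatgct, where H2-Eb1 reads GCAACtgatgatgct. The search took exact letters only, so a missing match does not mean that an X box is absent. The H2-DMa promoter, not printed, has no Y box match and has GCAAC once, on the opposite strand. Of all 32851 promoter windows, 16.1% hold the Y box, 35.2% hold GCAAC and 1.79% hold TGACGTCA. A match is a description of letters.

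Of the chains of H2-DM, which loads peptides onto class II in the endosome, H2-DMa rose and H2-DMb1 did not pass. H2-DMa had 410, 413, 335 and 455 CPM in APPPS1 Cre-positive microglia and 407, 454, 346, 442 and 518 CPM in APPPS1 Cre-negative microglia, against 271 and 193 CPM in amyloid-free Cre-positive and 368 and 296 CPM in amyloid-free Cre-negative microglia. The APPPS1 libraries overlapped with mouse 465 alone among the amyloid-free ones. The log2 change was 0.59 ± 0.14 (adjusted p = 0.0219, edgeR), and the call was lost without mouse 759 (adjusted p = 0.102) or mouse 26 (0.0951). Without both mice 22 and 26 it was 0.34 (adjusted p = 0.408), smaller by over 1.5 times.

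H2-DMb1 had 163 to 241 CPM in APPPS1 and 96.7 to 194 CPM in amyloid-free microglia. Its log2 change was 0.41 ± 0.13 (adjusted p = 0.061, edgeR). It passed without mouse 469 (0.45, adjusted p = 0.0377) and without mouse 22 (0.57, adjusted p = 0.0278), and was 0.13 without both mice 22 and 26. Of its 50-base windows, 27.2% also occur in H2-DMb2, so its counts are uncertain where the counting could split the pair. H2-DMa shares 360 exon bases with Brd2 on the other strand, which adds the same doubt about strand. The H2-DMa level over the H2-Aa level within a library ran from 0.897 to 4.29 in APPPS1 and from 0.572 to 1.25 in amyloid-free microglia. These ranges overlap through mice 439 and 759, and the pair was chosen after the values were seen.

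**Figure D3:**
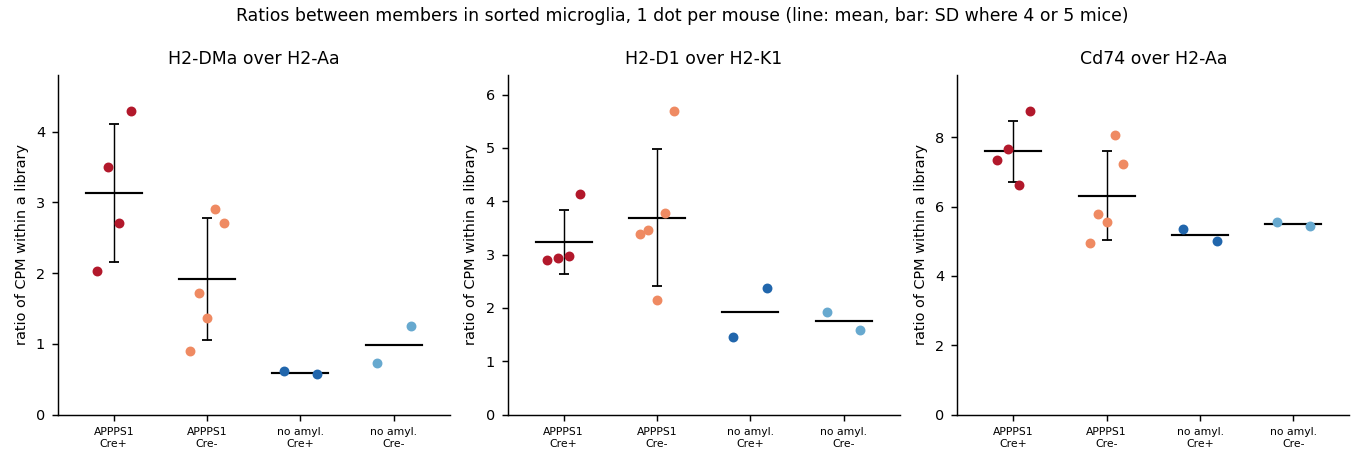
Ratios of CPM between 2 members within each microglia library, 1 dot per mouse, with the group mean as a line and the SD as a bar for the APPPS1 groups (no amyl. stands for amyloid-free). H2-DMa over H2-Aa lies above 2 in all 4 APPPS1 Cre-positive libraries. H2-D1 over H2-K1 lies between 2.15 and 5.69 in APPPS1 and between 1.46 and 2.37 in amyloid-free microglia, and these ranges overlap.

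Among class I genes, B2m rose with amyloid, H2-D1 changed in the same direction without passing, and H2-K1 did not pass. B2m, on chromosome 2 at 122147686 to 122153083, had 5005, 4464, 5153 and 4988 CPM in APPPS1 Cre-positive microglia and 3798, 5234, 2676, 4545 and 6874 CPM in APPPS1 Cre-negative microglia, against 2389 and 3512 CPM in amyloid-free Cre-positive and 2478 and 2879 CPM in amyloid-free Cre-negative microglia. Of the 9 APPPS1 libraries, the library of mouse 469 alone fell within the amyloid-free range. The log2 change was 0.76 ± 0.20 (adjusted p = 0.0333, edgeR). Leaving out 1 mouse gave 0.67 to 0.94, all higher with amyloid. The adjusted p was above the threshold without mice 447 (0.0548), 774 (0.0524), 443 (0.0502), 458 (0.0519), 475 (0.0567), 465 (0.102), 759 (0.0835), 22 (0.0703) or 26 (0.0501). Without both mice 22 and 26 the log2 change of B2m was 0.84 (adjusted p = 0.167).

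H2-D1 had 3001, 2387, 2171 and 3916 CPM in APPPS1 Cre-positive microglia and 3239, 2756, 1788, 3433 and 4657 CPM in APPPS1 Cre-negative microglia, against 1301 and 2551 CPM in amyloid-free Cre-positive and 1743 and 1237 CPM in amyloid-free Cre-negative microglia. The APPPS1 Cre-negative libraries all stood above their amyloid-free Cre-negative counterparts, the lowest at 1788 CPM against 1743 CPM. How many of all genes were split in this way was not counted. The log2 change of 0.83 ± 0.25 missed the threshold (adjusted p = 0.0517, edgeR), and passed without mouse 469 (0.92, adjusted p = 0.0153), 460 (0.91, 0.0446) or 26 (1.14, 0.0483). Without both mice 22 and 26 it was 1.03 (0.156). H2-K1 had 728 to 1032 CPM in APPPS1 and 783 to 1077 CPM in amyloid-free microglia, a log2 change of -0.06 ± 0.12 (adjusted p = 0.771), and of 0.06 without mice 22 and 26. Of the 50-base windows of H2-D1, 13.9% also occur in other genes, H2-Q1 holding the most (6.68%). Of those of H2-K1 6.87% are shared.

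The heavy chain genes have near-identical promoters, which is why both are shown with that of B2m. A local alignment of the H2-K1 and H2-D1 windows had 206 of 228 columns identical (90.4%). Capitals mark the kappa B letters GGGATTCCC, the interferon response core AANTGAAA, printed as TTTCACTT where it lies on the other strand, and the Y box GATTGG.
H2-K1, chr17:34000368-34000487, minus strand: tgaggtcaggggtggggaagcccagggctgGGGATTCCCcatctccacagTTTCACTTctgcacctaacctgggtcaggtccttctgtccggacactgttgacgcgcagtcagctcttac
H2-D1, chr17:35262894-35263013, plus strand: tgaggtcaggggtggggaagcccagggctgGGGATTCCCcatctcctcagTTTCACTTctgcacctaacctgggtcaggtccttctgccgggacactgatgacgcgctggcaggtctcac
B2m, chr2:122147520-122147639, plus strand: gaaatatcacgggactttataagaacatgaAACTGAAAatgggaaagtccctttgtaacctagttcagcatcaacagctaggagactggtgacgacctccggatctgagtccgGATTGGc

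Both heavy chain windows hold the kappa B letters and the interferon core, and the B2m window holds the interferon core and the Y box. H2-K1 and H2-D1 each have a Y box on the other strand outside the printed stretch. Of all promoter windows, 0.353% hold GGGATTCCC and 6.58% hold AANTGAAA. Whether these letters bear on the levels was not tested. H2-D1 over H2-K1 within a library was 2.15 to 5.69 in APPPS1 and 1.46 to 2.37 in amyloid-free microglia. These ranges overlap through mice 469 and 26.

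The amyloid comparison was then made within each Cre state, with all 13 libraries in 1 fit. In Cre-positive microglia H2-Aa fell by 1.51 on the log2 scale (SE 0.38, adjusted p = 0.0337, edgeR), H2-Eb1 changed by -1.32 ± 0.32 (0.0314) and H2-DMa by 0.80 ± 0.21 (0.0358). These 3 of 10 members compare with 7.05% of all genes in the same comparison. In Cre-positive mice 8 of the 10 members had APPPS1 libraries that did not overlap with the 2 amyloid-free ones, H2-K1 and H2-D1 being the others, and 36.4% of all genes did not overlap in this comparison of 4 libraries with 2. H2-Ab1 (-1.04 ± 0.31, adjusted p = 0.0549), Cd74 (-0.97 ± 0.31, 0.07), Ciita (-1.47 ± 0.70, 0.197), H2-DMb1 (0.61 ± 0.19, 0.065) and B2m (0.73 ± 0.29, 0.127) did not pass.

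These Cre-positive calls rest on mice 22 and 26 as the sole amyloid-free animals. The calls of H2-Aa and H2-Eb1 were lost without mouse 22 (adjusted p = 0.122 and 0.142), 26 (0.281 each), 458 (0.0844 and 0.0767), 460 (0.0626 and 0.0541) or 475 (0.0813 and 0.0752). That of H2-DMa was lost without mouse 26 (0.336), 443 (0.0619), 447 (0.0501), 458 (0.0818) or 475 (0.08). In the direction of the change no setting differed for these 3 genes.

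In Cre-negative microglia 0 of 10 members passed by edgeR, where 0.313% of genes did. At an unadjusted p under 0.05 there were 2, H2-D1 (1.09 ± 0.36, adjusted p = 0.259) and B2m (0.79 ± 0.29, 0.316), against 1941 of 17593 genes. DESeq2 called 1, H2-D1 (adjusted p = 0.0424), and voom 0. The class II changes were -0.51 ± 0.37 for H2-Aa, -0.31 ± 0.30 for H2-Ab1, -0.60 ± 0.31 for H2-Eb1 and -0.40 ± 0.31 for Cd74. Without mouse 465 those of H2-Aa, H2-Ab1 and Cd74 turned to 0.17, 0.26 and 0.29.

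The difference of the amyloid effect between Cre-positive and Cre-negative mice was tested directly. For H2-Aa the amyloid fold change in Cre-positive mice was 0.499 times that in Cre-negative mice (adjusted p = 0.622, edgeR). The log2 difference was -2.11 ± 1.02 for Ciita (0.586) and 0.41 ± 0.28 for H2-DMa (0.671). With edgeR 0 members passed, none had an unadjusted p under 0.05, DESeq2 and voom called 0, and 0.0% of genes passed. Of all genes 8.68% had an unadjusted p under 0.05. Standard errors of these differences ran from 0.24 for H2-K1 to 1.02 for Ciita.

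**Figure D4:**
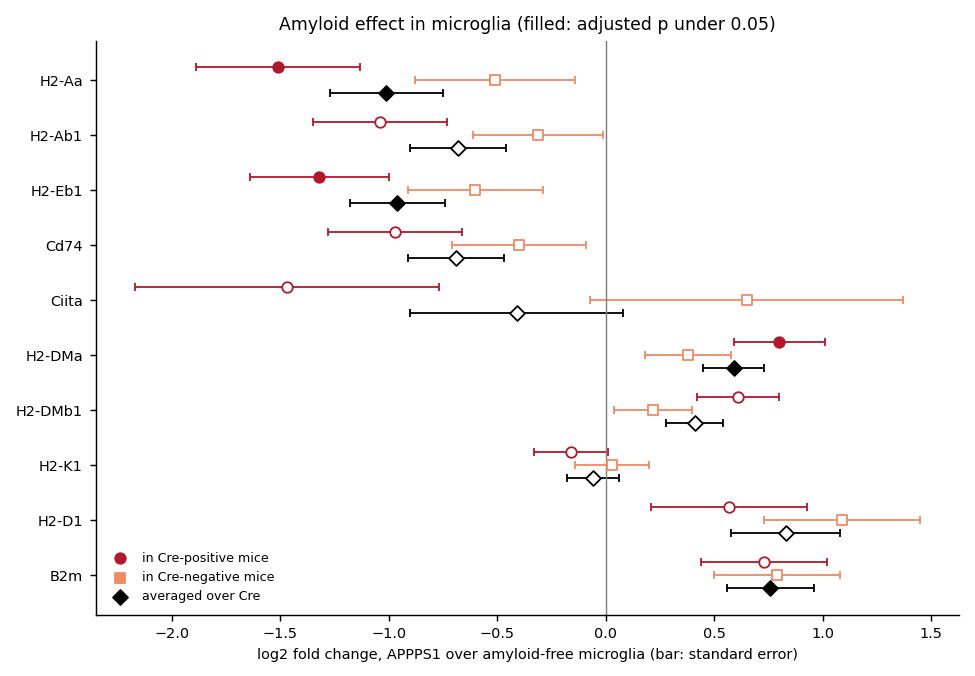
Log2 fold change of each member, APPPS1 over amyloid-free microglia, with its standard error, in Cre-positive mice (circles), Cre-negative mice (squares) and averaged over Cre (diamonds). Filled symbols passed an adjusted p under 0.05, and they are H2-Aa, H2-Eb1 and H2-DMa in Cre-positive mice and these 3 with B2m in the average.

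Whether removing APOE4 from astrocytes changed the genes in microglia was asked within APPPS1 mice. The 4 class II chains and Ciita were lower in Cre-positive than in Cre-negative microglia without passing: H2-Aa by -0.93 ± 0.31, H2-Ab1 by -0.80 ± 0.25, H2-Eb1 by -0.75 ± 0.26, Cd74 by -0.59 ± 0.25 and Ciita by -1.38 ± 0.58 on the log2 scale. These 5 had an unadjusted p under 0.05, from 0.0061 for H2-Ab1 to 0.0347 for Cd74, and all adjusted p were 1.0 by edgeR. DESeq2 and voom also called 0 of 10. The mean level of H2-Ab1 was 160 ± 30.6 CPM in Cre-positive (n = 4) and 279 ± 95.4 CPM in Cre-negative mice (n = 5), and the groups overlapped for all 10 members. Over all genes 1 passed, or 0.00568%, and 3.5% had an unadjusted p under 0.05.

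Mouse 439 carried much of the Cre-negative level, with 453 CPM of H2-Aa against 152 to 264 CPM in the other 4. Leaving out 1 mouse at a time gave H2-Aa -1.18 to -0.65, H2-Ab1 -0.94 to -0.58 and Ciita -1.63 to -0.57. The DM and class I genes differed by -0.20 to 0.08 in this comparison. In amyloid-free mice Cre-positive and Cre-negative microglia were 2 against 2. There 0 members passed by edgeR, DESeq2 or voom, against 0.0114% of genes. H2-DMa (-0.52 ± 0.23, adjusted p = 0.322) and H2-DMb1 (-0.58 ± 0.22, 0.26) had an unadjusted p under 0.05, as did 14.8% of all genes. These 2 and Ciita had no overlap between the groups, as did 46.1% of all genes.

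Members were also compared across the 9 APPPS1 microglia libraries, as log2 CPM. The 4 class II chains varied together from mouse to mouse. Pearson's r was 0.98 between H2-Aa and each of H2-Ab1 and H2-Eb1, and 0.96 between H2-Aa and Cd74 (exact permutation p = 5e-05, 1.1e-05 and 0.00019, two-sided). Spearman's rho of these pairs was 0.95, 0.98 and 0.92 (exact permutation p = 0.00035, 5e-05 and 0.0013). Adjusted over 49 relations the Pearson p were 0.00081, 0.00054 and 0.0024, and those of rho 0.0058, 0.0024 and 0.0161. The other 3 pairs among the 4 chains had r of 0.91 to 0.97, and all 6 pairs passed by both measures. Without the 2 libraries farthest from the median of the first gene, r of the 6 pairs was 0.87 to 0.96.

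No relation of the chains with the remaining members passed the adjustment. H2-Aa had r of -0.03 with H2-DMa, -0.04 with H2-D1, -0.36 with B2m and 0.25 with H2-K1 (exact permutation p = 0.947, 0.913, 0.339 and 0.522; rho -0.23, -0.15, -0.12 and 0.20). H2-Aa and Ciita had r = 0.68 (exact permutation p = 0.0419, adjusted 0.147) and rho = 0.42, and r = -0.21 without the 2 farthest libraries, so their relation rests on those. H2-DMa and H2-D1 had r = 0.88 (exact permutation p = 0.0022, adjusted 0.0152) with a rho of 0.78 (0.0172, adjusted 0.121), and r = 0.81 without the 2 farthest. The points share Cre state, and 4 or 5 libraries per state are too few for a value within each.

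The other genes of both pathways were read from 6 lists in the amyloid comparison averaged over Cre. Of 11 other class II presentation genes tested, 4 rose and 2 fell, with a median log2 change of 0.27 against -0.05 over all genes. These counts, and those of the lists that follow, stand beside the 9.58% of all genes that passed in this comparison. Without mice 22 and 26 no gene of any of the 6 lists passed by edgeR. H2-Oa and H2-Ob, the chains of H2-O, which restrains H2-DM, both rose. H2-Ob averaged 90.9 ± 17.1 CPM in APPPS1 and 50.03 ± 17.93 CPM in amyloid-free microglia (log2 change 0.89 ± 0.18, adjusted p = 0.0092, edgeR). H2-Oa changed by 0.96 ± 0.19 (0.0098). The cysteine proteases that cut the invariant chain rose as well, Ctsl by 1.32 ± 0.22 (0.0041) and Ctss by 0.52 ± 0.13 (0.0278). Ctsl had 947 to 2649 CPM in APPPS1 and 419 to 868 CPM in amyloid-free microglia.

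The 2 that fell were March1, a ubiquitin ligase that takes class II off the surface, and the class II beta chain gene H2-Eb2. March1 had 68.0 to 114 CPM in APPPS1 and 116 to 153 CPM in amyloid-free microglia (log2 change -0.56 ± 0.15, adjusted p = 0.0299, edgeR). H2-Eb2 stayed below 1.3 CPM in every library and changed by -2.55 ± 0.68 (0.0321). Of 12 transcription factors of class II and class I genes, 1 rose, Irf8, which directs macrophage development, and 0 fell. Irf8 averaged 453 ± 59.8 CPM in APPPS1 and 296 ± 27.2 CPM in amyloid-free microglia, with no overlap (0.60 ± 0.12, adjusted p = 0.0098). How many of all genes had no overlap in this comparison was not counted. The median of this list was -0.12.

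Of 13 class I antigen processing genes, 1 rose, a share below that of all genes, the chaperone Calr (0.55 ± 0.15, adjusted p = 0.0369, edgeR), and all 13 had a positive change, with a median of 0.27. Of 15 other class I and class I-like genes 3 rose and 1 fell, with a median of 0.02. H2-M3, which presents formylated peptides, had 74.3 to 142 CPM in APPPS1 and 48.4 to 80.8 CPM in amyloid-free microglia (0.82 ± 0.17, adjusted p = 0.0114). H2-T23, the ligand of an inhibitory natural killer cell receptor, changed by 0.64 ± 0.15 (0.0207) and Mr1, which presents microbial vitamin metabolites, by 0.92 ± 0.23 (0.0261). H2-Q10, a secreted class I molecule, fell, with a log2 change of -1.06 ± 0.26 (0.0236). It had 4.58 to 7.40 CPM in APPPS1 and 4.79 to 26.1 CPM in amyloid-free microglia.

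Of 17 interferon gamma pathway genes, 1 rose and 1 fell, with a median of -0.09. The chemokine Cxcl10 had 18.5 to 45.4 CPM in APPPS1 and 13.3 to 17.4 CPM in amyloid-free microglia (0.84 ± 0.16, adjusted p = 0.0086, edgeR). The GTPase Gbp2 had 10.7 to 25.8 CPM in APPPS1 and 19.3 to 39.5 CPM in amyloid-free microglia (-0.72 ± 0.20, 0.0367). Of 11 co-stimulatory and inhibitory molecules, 1 rose and 1 fell, with a median of -0.04. The galectin Lgals9 changed by 0.56 ± 0.14 (0.0267) and the receptor Cd40 by -1.23 ± 0.34 (0.0375). Cd40 had 14.9 CPM in 1 amyloid-free Cre-positive library and 1.19 to 3.22 CPM in all APPPS1 libraries. Across the alternatives the counts ran from 0 to 7 for the other class II list, 0 to 5 for the other class I list, 0 to 4 for class I processing and for co-stimulation, 0 to 3 for interferon gamma and 0 to 1 for transcription factors.

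Markers of other cells that can carry class II were read in the same libraries. The marker calls for amyloid averaged over Cre stand beside the 9.58% of all genes that passed in that comparison. The 9 dendritic cell markers summed to 39.5 to 104 CPM in APPPS1 and 74.7 to 150 CPM in amyloid-free microglia. Over all 13 libraries the median sum was 73.9 CPM. Much of it was Cd209a, with a median of 40.9 CPM (16.5 to 104), followed by Batf3 with a median of 15.8 CPM. Of the 9, 1 fell with amyloid, the lectin Cd209a (-1.20 ± 0.31, adjusted p = 0.0301, edgeR), and none rose. The defining marker Xcr1 stood at 0.183 to 1.93 CPM and Clec9a at 0.0894 to 1.34 CPM over all 13 libraries, none at 0. The 10 monocyte and neutrophil markers summed to 215 to 4605 CPM in APPPS1 and 1309 to 5723 CPM in amyloid-free microglia. The highest APPPS1 value was that of mouse 439, which was also highest for H2-Aa and Ciita. Of these 10, the chemokine receptor Ccr2 fell (-1.43 ± 0.38, 0.0319) and none was at 0 in any library.

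The 10 border macrophage markers summed to 186 to 320 CPM in APPPS1 and 187 to 577 CPM in amyloid-free microglia, none of them at 0, and F13a1 alone passed (-1.28 ± 0.26, adjusted p = 0.0114, edgeR). Their sum differed by Cre state. It was 186 to 320 CPM with amyloid and 443 and 577 CPM without it in Cre-negative mice. In Cre-positive mice it was 206 to 295 CPM with amyloid and 187 and 279.5 CPM without it. The 8 B cell markers summed to 800 to 1240 CPM in APPPS1 and 412 to 828 CPM in amyloid-free microglia, mostly the immunoglobulin gene Ighm. The amyloid-free sums were 734 and 828 CPM in Cre-negative and 412 and 753 CPM in Cre-positive mice. Ms4a1 was at 0 in 5 and Pax5 in 10 of the 13 libraries. Cd79b (30.2 to 66.8 CPM), Cd22 (7.52 to 62.7 CPM) and Cd79a (0.13 to 3.08 CPM) were at 0 in none. The 10 T and NK cell markers summed to 3.96 to 14.2 CPM in APPPS1 and 9.57 to 49.6 CPM in amyloid-free microglia. Of these, Cd3e was at 0 in 9 libraries, and Nkg7, Ncr1, Lck and Cd4 were at 0 in none. In Cre-negative mice the T and NK sum was 7.71 to 14.2 CPM with amyloid and 9.57 and 14.6 CPM without it. Amyloid-free Cre-positive mice had 12.1 and 49.6 CPM. The 10 endothelial markers summed to 30.9 to 78.2 CPM in APPPS1 and 56.0 to 243 CPM in amyloid-free microglia, and 4 of them fell. The high amyloid-free sums were those of the Cre-positive mice, 102 and 243 CPM. In Cre-negative mice the sum was 41.1 to 60.0 CPM with amyloid and 56.0 and 60.7 CPM without it. Of 10 astrocyte markers 5 fell and 1 rose, and of 8 neuron markers 2 fell. Of 10 microglia markers 3 rose, and of 6 B cell markers tested 2 rose and 1 fell. The microglia markers summed to 34130 to 40570 CPM in APPPS1 microglia. Without amyloid the sum was 37110 and 41110 CPM in Cre-negative mice, and 15890 and 31860 CPM in Cre-positive mice. The APPPS1 sums thus stood above those of the amyloid-free Cre-positive mice only. The marker calls are not given here without these 2 mice. By edgeR 0 of 7 T and NK cell markers and 0 of 8 oligodendrocyte markers passed. The median log2 change was -0.66 over the dendritic, -1.12 over the monocyte and neutrophil, -0.02 over the border macrophage and -1.21 over the endothelial list. The part of these cells in the class II result was not tested. Across the 9 APPPS1 libraries H2-Aa had r = 0.71 with the dendritic sum (exact permutation p = 0.0325, adjusted 0.142, and rho 0.63), which holds much Cd209a. With the border macrophage sum r was -0.12, with the B cell sum 0.11 and with the monocyte and neutrophil sum 0.26.

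**Figure D5:**
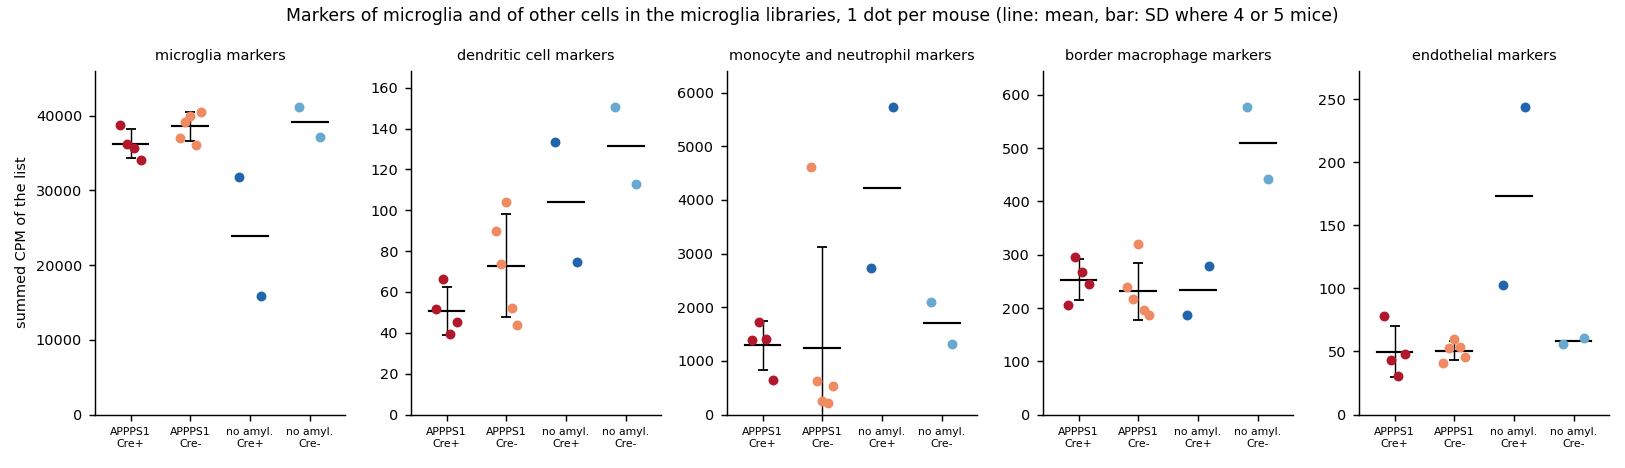
Summed CPM of 5 marker lists in the microglia libraries by genotype group, 1 dot per mouse, with the group mean as a line and the SD as a bar for the APPPS1 groups (no amyl. stands for amyloid-free). Dendritic cell markers are at 39.5 to 104 CPM in APPPS1 and 74.7 to 150 CPM in amyloid-free microglia, and mouse 26 has the lowest microglia and the highest endothelial sum.

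In Cre-positive microglia alone, 5 of 11 other class II presentation genes tested rose with amyloid and 0 fell, beside 7.05% of all genes called in either direction (643 higher and 597 lower). Ctsl had a log2 change of 1.63 ± 0.32 there (adjusted p = 0.0189, edgeR), H2-Ob one of 1.16 ± 0.26 (0.0246) and H2-Oa one of 1.24 ± 0.28 (0.0260). Of the class I lists, the peptide-loading disulfide isomerase Pdia3 rose (0.82 ± 0.22, 0.0383), as did H2-M3, H2-T23 and Fcgrt, the neonatal Fc receptor chain, while H2-Q10 fell. In the same comparison 3 of 10 border macrophage markers rose, Cbr2 (1.69 ± 0.31), Lyve1 (2.33 ± 0.51) and Cd209f (2.06 ± 0.56), and their part in the result was not tested. Like the calls of the members, these list and marker calls rest on 2 amyloid-free Cre-positive mice. They are not given here with either of those mice left out. In Cre-negative microglia no gene of the 6 pathway lists passed by edgeR.

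In astrocytes no member passed in any comparison by edgeR, DESeq2 or voom. For amyloid averaged over Cre, 0.0% of 20052 genes passed, and the class I genes had the changes nearest to the threshold. H2-K1 had 117 to 176 CPM in APPPS1 and 103 to 132 CPM in amyloid-free astrocytes (log2 change 0.31 ± 0.12, adjusted p = 0.564, edgeR). The log2 change of H2-D1 was 0.55 ± 0.26 (0.719) and that of B2m 0.40 ± 0.16 (0.628), and H2-K1 and B2m were the 2 members with an unadjusted p under 0.05, as had 7.03% of all genes. Class II genes other than Ciita and H2-DMa ran between 0 and 5.03 CPM in these libraries, and a count of 0 allows up to 3 counts, for counting error only.

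Within Cre-positive astrocytes, 0.663% of genes passed with amyloid and 0 members did. B2m alone, and 11.7% of all genes, had an unadjusted p under 0.05 (0.72 ± 0.24, adjusted p = 0.224, edgeR), with 150 to 245 CPM in APPPS1 and 102 and 118 CPM in amyloid-free astrocytes. Within Cre-negative astrocytes 0.0% of genes and 0 members passed, and 0 members had an unadjusted p under 0.05, against 4.06% of all genes. The difference of the amyloid effect between the Cre states had 0 members and 0.155% of genes, again with 0 members at an unadjusted p under 0.05, against 11.4% of all genes.

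Cre in APPPS1 astrocytes, the cells that lose APOE4, called 0 members and 0.00997% of genes, with 0 members and 6.7% of genes at an unadjusted p under 0.05. H2-K1 differed by 0.13 ± 0.13, H2-D1 by 0.04 ± 0.28 and B2m by -0.06 ± 0.18 between Cre-positive and Cre-negative mice. In amyloid-free astrocytes 0 members and 0.204% of genes passed. B2m (-0.70 ± 0.27, adjusted p = 0.281, edgeR) was the 1 member with an unadjusted p under 0.05 there, as had 12.9% of all genes. From the list of co-stimulatory and inhibitory molecules, Lgals9 rose with amyloid in Cre-positive astrocytes (2.81 ± 0.55, adjusted p = 0.0395).

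The amyloid effect was compared between the sorts. With edgeR, DESeq2 and voom 0 members passed, against 1.5% of genes, and 2 had an unadjusted p under 0.05, as had 15.6% of all genes. H2-DMa differed by 0.70 ± 0.32 on the log2 scale, microglia minus astrocytes (adjusted p = 0.283, edgeR), and H2-Aa by -4.29 ± 1.89 (0.27), whose astrocyte libraries are mostly at 0. The class I genes differed by -0.35 ± 0.18 (H2-K1), 0.31 ± 0.39 (H2-D1) and 0.39 ± 0.28 (B2m).

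Genes whose level ran most like the members' were ranked over the 13 microglia libraries among 8279 genes whose log2 CPM averaged 3 or more. With the mean of H2-Aa, H2-Ab1, H2-Eb1 and Cd74, Pearson's r was highest for Sfi1 (0.926), Nfam1 (0.909), AC149090.1 (0.868), Csad (0.867) and Pank4 (0.859). Within genotype groups, as deviations from each group's mean, their order differed, with Pank4 at 0.944, Nfam1 at 0.864, Sfi1 at 0.798, AC149090.1 at 0.754 and Csad at 0.746. With the mean of the 3 class I genes it was highest for Ldha (0.970), Anxa5 (0.956), Sh3bgrl3 (0.951), Eif3k (0.950) and Atox1 (0.947), which were at 0.913 to 0.947 within groups. These values are a description of shared libraries, picked as the highest of many, and carry no test.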

How the data were processed

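Raw gene counts of mouse and human genes were deposited as 1 table. The submitters' processing notes name bcl2fastq, STAR, featureCounts (Subread) and the builds GRCm38 and GRCh38. Settings, strand and the treatment of reads with several matches are not given in the sources used here. Per the labels' protocols, RNA came from a miRNeasy kit and libraries from a SMARTer preparation. The table has 95966 rows. Repeated IDs (258, each time the same counts) entered 1 time, and 0 columns were left unmapped.

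Mouse genes were filtered by group (filterByExpr), scaled by TMM and tested with edgeR 4.0.16 (quasi-likelihood) in R 4.3.3, with 1 term per genotype group and 1 fit per sort. Benjamini-Hochberg adjustment ran over all genes tested, with a threshold of 0.05. Standard errors are the log2 change over the square root of F. CPM use TMM sizes within a sort, or over both sorts where said. P-values measure the spread between mice. DESeq2 1.42.0, voom (limma 3.58.1), no filter on low counts, leaving out mice, only the groups compared in a fit, mouse 459 kept, and mouse as a block were alternatives. Mouse numbers pair the sorts because both came from the same animal, and deviations from group means correlated at -0.057 to 0.182 over 21612 genes. Positions are from GENCODE M21 and promoters from RefSeq. The code was tested on simulated data.

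By the rule for named genes, the text takes all 10 members and, from each list, those past the threshold, up to 4 of lowest p per direction. It also takes the 5 genes most correlated with the class II chains and with class I, leaving out predicted genes. Where no gene of a list passed, its gene of lowest p is not printed. The 6 pathway lists and 10 marker lists, the members and the tests were chosen with earlier results of these data known. Some genes of the marker lists are not reported here by name.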

Additional observations from a re-analysis of the deposited data

Results flagged for a closer look

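In groups of 4 or 5 mice, 1 library stood far from the rest in 5 of 40 groups of member levels tested, where chance gives about 1 in 20. In microglia there were 2. Cd74 stood at 1484 CPM in APPPS1 Cre-positive mouse 443, against 821 to 929 CPM in the other 3. Ciita stood at 6.45 CPM in APPPS1 Cre-negative mouse 439, against 0.950 to 1.80 CPM in the other 4. That library also had the highest monocyte and neutrophil marker sum of the APPPS1 microglia, 4605 CPM, and its part in the level was not tested.

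The other three were in astrocytes, at low counts. H2-Aa stood at 0.519 CPM (22 counts) and Cd74 at 5.03 CPM (213 counts) in APPPS1 Cre-negative mouse 774, and Cd74 at 2.61 CPM (108 counts) in APPPS1 Cre-positive mouse 443. The same mouse 443 had the highest Cd74 of its group in microglia.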

How the results depend on the processing

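With amyloid averaged over Cre in microglia, 4 members passed. The number was 0 with mouse 459 kept as labelled, 8 by DESeq2, 6 by voom and 7 with no filter on low counts. It was 0 without mice 22 and 26, and 1 to 6 when 1 mouse was left out. In Cre-positive microglia it was 3, and 0 with mouse 459 kept, 6 by DESeq2, 5 with no filter, and 0 to 4 with 1 mouse left out. In Cre-negative microglia DESeq2 called 1 in place of 0. The genes called over the whole table moved with these settings, 1685 in the first comparison against 19 with mouse 459, 2722 by DESeq2, 131 without mice 22 and 26, and 392 to 2441 with 1 mouse left out. Without mice 22 and 26, 0 genes of the 6 pathway lists passed in it. Between the sorts 9 members passed, 8 by DESeq2, 10 by voom, and 9 or 10 with 1 mouse left out. With the replicate block of mouse 10 passed, Ciita being the addition, and the block changed no other call of a member. No member that passed changed direction under any setting run. Only 2 mice stand in each amyloid-free group, which limits every amyloid comparison, and astrocyte class II counts near 0 limit those comparisons. The cause of these differences was not tested.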

Other observations

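Human genes of the same family were listed in 42 rows of the table and held 113 counts over all libraries.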
